A study of Mus musculus with 4 samples.

Results

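The solute carrier (Slc) transporter genes described here are the protein-coding genes of the deposited table whose symbol begins with Slc, a family number, the letter a and a member number, apart from 10 genes that the rule leaves out (Slc1a2, Slc1a3, Slc4a4, Slc2a1, Slc2a3, Slc16a1, Slc16a3, Slc30a1, Slc39a1 and Slc39a10). There are 184 such genes among the 13881 genes of the table, from 43 families. The name pattern, not a measured value, chose them, and it also takes in Slc9a3r1, Slc9a3r2, Slc7a6os and Slc4a1ap, which are named after a carrier but do not transport.

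Solute carriers are the largest group of membrane transporters that work without burning ATP themselves. They move amino acids, sugars, ions, metals, vitamins and metabolites down a gradient or against it, often by coupling to the sodium and proton gradients that ATP-driven pumps maintain. In the developing forebrain they feed the nutrient demand of dividing progenitors, clear transmitters such as glutamate, GABA and glycine, and set cell volume, intracellular chloride and calcium.

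The cells were neural progenitors that had been isolated at embryonic day 14 from C57bl/6 mouse forebrain, and RNA-seq reads were counted per gene. The cells were expanded with 2% B27 lacking vitamin A, 20 ng/ml EGF and 20 ng/ml FGF-2, in medium that keeps them dividing. In the shRybp group a lentivirus delivered a short hairpin RNA against Rybp, a subunit of Polycomb repressive complex 1, and the control group is labelled ctrl, without a stated vector. There were 2 libraries a group. The labels name no separate cultures or infections for them, so a p-value here reflects the spread between these libraries alone, and that spread may be technical.

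Total counts ranged from 14355308 to 17598873 per library. Rybp itself had an FPKM (counts scaled by gene length and library total) of 4.43 and 3.95 in the control libraries and 3.01 and 2.66 in the shRybp libraries, 65.8% of control (edgeR adjusted p = 0.0017). Of 12 tested markers of neural progenitors, 3 rose and 4 fell, with a median log2 fold change of -0.12. The summed FPKM of that list was 2906 to 3168 in control and 2480 to 2565 in shRybp. Without its most abundant gene, Fabp7, it was 924 to 958 in control and 1097 to 1129 in shRybp. Nes (log2 fold change 0.67), Vim (0.27) and Cd24a (0.43) rose, while Fabp7 (-0.61), Msi1 (-0.57), Sox2 (-0.46) and Sox9 (-0.34) fell. Astrocyte markers moved with the groups: 16 of 17 tested fell, with a median log2 fold change of -0.77, and the summed FPKM of the 18 listed was 2083 in each control library and 1171 and 1265 in the shRybp libraries. Without Sparcl1, the most abundant of them, it was 1412 and 1469 in control and 744 and 821 in shRybp. Of 10 tested markers of oligodendrocyte precursors 5 fell, with summed FPKM of 904 and 929 in control and 813 and 842 in shRybp. Of 7 tested neuron markers 2 rose and 3 fell, with a median log2 fold change of -0.18. Their summed FPKM was 227 to 248 in control and 324 to 339 in shRybp, and without Gap43 it was 89.6 to 91.6 in control and 73.7 to 80.1 in shRybp. Of 10 microglia markers 8 are not among the genes of the table and the others summed to under 1 FPKM in each library, and the vessel, meningeal and choroid plexus lists had 1 tested gene each, of which the meningeal gene Foxc1 rose and the ependymal gene Foxj1 fell. In bulk libraries fewer cells of a type and less RNA per cell cannot be told apart, and the part of the glial markers in the carrier results below was not tested.

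Of the 184 carrier genes, 159 averaged 1 FPKM or more across libraries and were tested. A gene is said to have risen or fallen in shRybp where the edgeR quasi-likelihood test gave an adjusted p under 0.05 over all 12062 genes tested. In these terms 58 carrier genes (36.5%) changed, 26 upward and 32 downward, beside 33.0% of all tested genes. The rises were 16.4% of the carriers, where 16.3% of all genes rose, and the falls were 20.1%, where 16.7% of all genes fell. As a set the carriers therefore changed about as often as other genes, with a median log2 fold change of -0.03 against 0.00 over all genes. The groups did not overlap in FPKM for 106 carriers (66.7%), beside 67.5% of all tested genes: both shRybp libraries lay above both controls in 51 (38.5% of all genes) and below them in 55 (29.0% of all genes). Falls reached further than rises: 12 carriers fell by 1.5-fold or more (4.87% of all genes did so) and 9 rose by as much (2.82% of all genes), while 5 fell by 2-fold or more (1.21% of all genes) and 0.580% of all genes rose by 2-fold or more, where the largest rise of a carrier was 1.79-fold. Carrier transcripts made up 1.08% and 1.13% of all counts in control and 1.05% and 1.10% in shRybp, so the carriers' share of the library overlapped between groups.

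**Figure D1:**
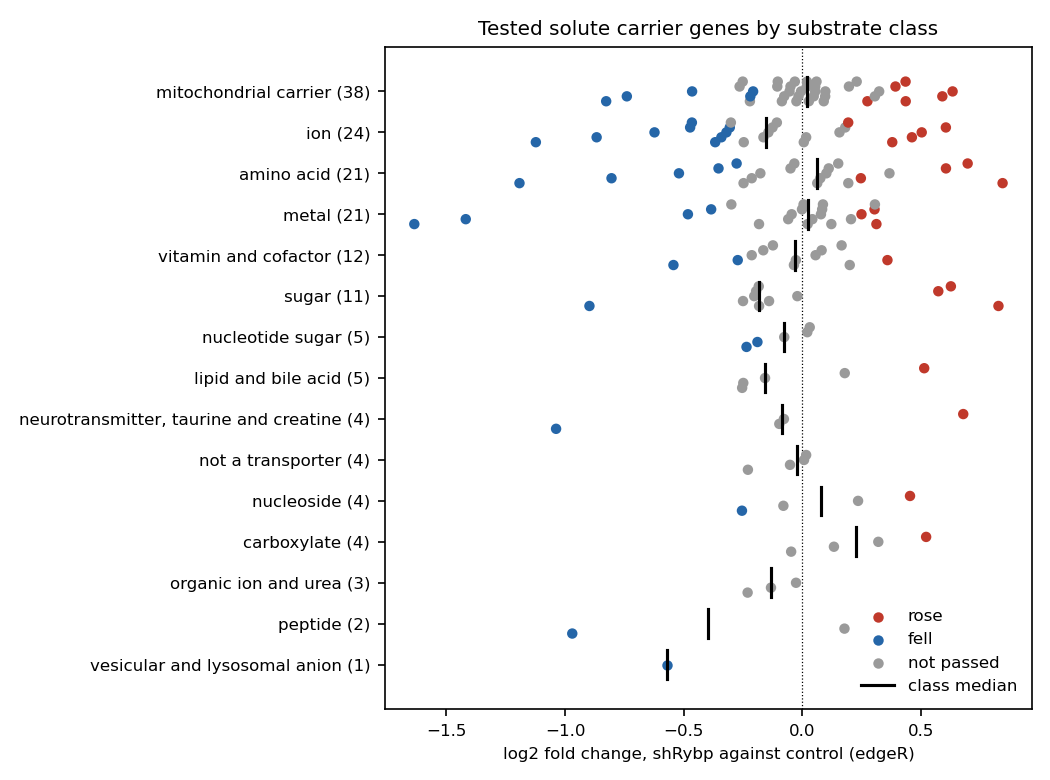
Log2 fold change of the 159 tested solute carrier genes in shRybp against control (x axis), 1 row per substrate class with the number of tested genes in brackets, points coloured by test result and a bar at each class median. Class medians lie near 0 in the large classes, while single genes spread from a fall of 1.64 to a rise of 0.84 on the log2 scale.

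Promoters of 5 carriers are shown because these genes stand for the main patterns that follow: an abundant GABA carrier that fell, the zinc importer with the second largest fall, a neutral amino acid exchanger that fell while its paralogue rose, the inositol carrier that rose and the mitochondrial glutathione carrier that rose. Each window runs 5′ to 3′ on the gene's strand from 250 bases before to 50 bases after the RefSeq start (GRCm38.p6, the build called mm10), and 139 of the 184 carriers matched an entry by symbol. Capitals mark GGGCGG (the GC box of Sp1 factors) and TGATGCAA (the composite site of ATF4), searched on both strands, so CCGCCC and TTGCATCA are the same motifs read from the other strand, and neighbouring GC boxes may overlap. GTGGGAA, the site of the Notch partner RBPJ, and the E-box CACGTG were searched too.
Slc6a11, chr6:114130991-114131290, plus strand: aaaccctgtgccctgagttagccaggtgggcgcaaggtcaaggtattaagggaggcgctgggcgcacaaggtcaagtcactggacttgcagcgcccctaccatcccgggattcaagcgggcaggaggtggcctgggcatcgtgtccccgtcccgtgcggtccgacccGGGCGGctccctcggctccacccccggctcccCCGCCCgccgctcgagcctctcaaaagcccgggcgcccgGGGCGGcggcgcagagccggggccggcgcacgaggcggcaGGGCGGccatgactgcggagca
Slc39a12, chr2:14388148-14388447, plus strand: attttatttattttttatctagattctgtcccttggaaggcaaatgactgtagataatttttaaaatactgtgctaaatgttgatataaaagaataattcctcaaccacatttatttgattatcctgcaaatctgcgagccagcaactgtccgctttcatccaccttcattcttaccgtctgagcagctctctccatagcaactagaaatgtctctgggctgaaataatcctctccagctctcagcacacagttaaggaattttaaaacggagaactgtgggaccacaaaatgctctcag
Slc1a4, chr11:20332664-20332963, minus strand: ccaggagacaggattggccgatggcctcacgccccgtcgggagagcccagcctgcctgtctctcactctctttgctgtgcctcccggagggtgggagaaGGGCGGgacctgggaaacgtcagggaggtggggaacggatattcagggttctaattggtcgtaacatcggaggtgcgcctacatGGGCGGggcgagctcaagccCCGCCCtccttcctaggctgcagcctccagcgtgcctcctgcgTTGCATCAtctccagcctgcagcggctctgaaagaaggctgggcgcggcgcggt
Slc5a3, chr16:92058072-92058371, plus strand: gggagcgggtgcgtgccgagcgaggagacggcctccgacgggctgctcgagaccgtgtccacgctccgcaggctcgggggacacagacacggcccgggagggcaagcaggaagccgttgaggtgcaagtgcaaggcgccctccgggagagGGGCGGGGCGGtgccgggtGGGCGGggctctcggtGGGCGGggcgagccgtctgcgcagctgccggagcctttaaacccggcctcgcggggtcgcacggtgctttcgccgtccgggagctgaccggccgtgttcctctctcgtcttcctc
Slc25a39, chr11:102407468-102407767, minus strand: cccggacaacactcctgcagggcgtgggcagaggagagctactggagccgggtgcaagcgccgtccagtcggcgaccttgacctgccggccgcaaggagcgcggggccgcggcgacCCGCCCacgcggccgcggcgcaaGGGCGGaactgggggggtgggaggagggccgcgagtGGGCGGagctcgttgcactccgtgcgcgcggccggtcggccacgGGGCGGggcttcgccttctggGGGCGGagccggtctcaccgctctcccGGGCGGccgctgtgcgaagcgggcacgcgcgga

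The windows differ in base composition. Slc6a11 has a G+C share of 72.3% with 32 CpG and 4 GC boxes, and Slc1a4 has 65.0% with 21 CpG, 3 GC boxes and the single ATF4 site of the set, beside the start. Slc39a12, which also fell, has 38.0% G+C, 4 CpG and none of the motifs. Among these 5 windows, those of carriers that rose have 73.3% G+C with 38 CpG and 4 GC boxes (Slc5a3) and 77.3% with 45 CpG and 6 GC boxes (Slc25a39). Base composition was not computed for other windows, and any link to the direction of change was not tested. Of all 32851 RefSeq windows of this length, 35.7% hold a GC box, 0.895% the ATF4 site, 6.38% the RBPJ site and 7.15% the E-box. The RBPJ site and the E-box were not found in these 5 windows, which says only that those letters are not there.

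Carriers of transmitters and of their osmolyte relatives split sharply. Slc6a11 (ENSMUSG00000030307, mm10 chromosome 6, 114131241 to 114249952, plus strand) encodes GAT-3, the GABA carrier typical of astrocytes, and was the third most abundant carrier transcript of the set. Its FPKM was 157 and 171 in the control libraries and 77.0 and 87.0 in the shRybp libraries. Both shRybp libraries lay far below both controls, a change of -1.04 ± 0.07 SE on the log2 scale (95% interval -1.20 to -0.88, adjusted p = 8.8e-07 by edgeR). The summed FPKM of astrocyte markers given above was lower in the same shRybp libraries, and its part in this fall was not tested. Slc6a9, the glycine carrier GlyT1, which is counted below among the amino acid carriers, fell from 19.3 and 21.1 to 10.5 and 13.1 FPKM (-0.80 ± 0.09 SE on the log2 scale, adjusted p = 4.8e-05 by edgeR).

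The taurine carrier Slc6a6 (mm10 chromosome 6, 91684053 to 91759066, plus strand) moved the other way. It had 9.63 and 9.71 FPKM in control and 16.1 and 15.6 in shRybp, with close replicates and no overlap (0.68 ± 0.06 SE on the log2 scale, adjusted p = 9.0e-06 by edgeR). Taurine is an organic osmolyte, as is myo-inositol, whose sodium-coupled carrier Slc5a3 is described with the sugars. The creatine carrier Slc6a8 did not pass the test, at 15.8 and 18.4 FPKM in control and 16.3 and 16.9 in shRybp (95% interval of the log2 fold change -0.25 to 0.09, edgeR adjusted p = 0.48).

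Amino acid carriers rose and fell in nearly equal number: 4 of 21 tested rose, 5 fell and 12 did not pass, with a median log2 fold change of 0.06. The largest fall was that of Slc1a1 (mm10 chromosome 19, 28835049 to 28913960, plus strand), which encodes the glutamate and cysteine importer EAAT3. It had 3.91 and 3.90 FPKM in control and 1.68 and 1.81 in shRybp, 2.28-fold lower (-1.19 ± 0.09 SE on the log2 scale, adjusted p = 1.9e-06 by edgeR). In GENCODE M21, 31.9% of its exon bases overlap 4430402I18Rik on the opposite strand, and no source used here says whether counting used strand, so reads of the pair cannot be told apart. The largest rise was that of Slc1a5, the glutamine and neutral amino acid exchanger ASCT2, with 3.15 and 3.14 FPKM in control and 5.46 and 6.10 in shRybp (0.84 ± 0.10 SE on the log2 scale, adjusted p = 8.0e-05 by edgeR). Its paralogue Slc1a4, the serine and alanine exchanger ASCT1 shown among the promoters, was the more abundant of the pair and fell, with 53.3 and 55.2 FPKM in control and 41.2 and 45.9 in shRybp (-0.35 on the log2 scale, adjusted p = 0.0014 by edgeR). The ratio of Slc1a4 to Slc1a5 within a library, which no scaling between libraries can change, was 16.9 and 17.6 in control and 7.53 in each shRybp library, so ASCT1 stayed the larger message while the gap narrowed.

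Carriers of cationic amino acids showed the same kind of opposition. Slc7a1, the arginine and lysine carrier CAT1 of most dividing cells, rose from 6.83 and 7.04 to 11.05 and 11.98 FPKM (0.70 ± 0.07 SE on the log2 scale, adjusted p = 1.1e-05 by edgeR). Slc7a2, which encodes CAT2, fell from 2.78 and 3.02 to 2.12 and 2.03 FPKM (-0.52 on the log2 scale, adjusted p = 0.0011 by edgeR). Their ratio, Slc7a2 over Slc7a1, was 0.407 and 0.429 in control and 0.192 and 0.170 in shRybp. Slc6a17, a carrier that loads neutral amino acids into synaptic vesicles, rose by 0.61 on the log2 scale from a low level of 1.65 and 2.43 FPKM, and by 0.35 without control replicate 1.

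The large neutral amino acid exchanger was the most abundant of the class and changed little. Slc7a5, its LAT1 subunit that imports leucine, had 51.0 and 52.1 FPKM in control and 58.5 and 66.8 in shRybp and rose by 0.25 (edgeR adjusted p = 0.016), a call lost without shRybp replicate 2 (0.15, edgeR adjusted p = 0.18). Slc3a2, the heavy chain that carries LAT1 to the membrane, overlapped between groups at 44.7 and 47.9 against 47.8 and 54.0 FPKM and did not pass (0.10 on the log2 scale, 95% interval -0.05 to 0.25, adjusted p = 0.29 by edgeR). Slc7a11, the cystine importer that pairs with the same heavy chain, was low, with 1.09 to 1.24 FPKM in control and 1.09 to 1.22 in shRybp (edgeR adjusted p = 0.78). The glutamine carriers Slc38a1 (0.06 on the log2 scale, adjusted p = 0.44 by edgeR) and Slc38a2 (0.15, edgeR adjusted p = 0.073) did not pass. Slc38a2 passed under library totals without TMM (edgeR adjusted p = 0.031) and with the replicate number added to the fit (edgeR adjusted p = 0.017). Slc38a3, a glutamine carrier that astrocytes make, fell by 0.28 and lost the call under 4 alternatives, among them without control replicate 2 (-0.17) and without shRybp replicate 1.

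Several of these carriers are known targets of ATF4, the factor that amino acid shortage induces, so the other genes of that response are given beside them. Of 21 such genes tested, 9 rose and 4 fell, with a median log2 fold change of 0.20, where 16.3% of all genes rose and 16.7% fell. Atf4 itself had 58.9 and 57.8 FPKM in control and 72.2 and 68.0 in shRybp (0.23 on the log2 scale, adjusted p = 0.014 by edgeR). The asparagine synthetase gene Asns (0.60) and the mitochondrial folate enzyme gene Mthfd2 (1.02) rose, while Ddit3 (-0.49), Ddit4 (-0.73), the alanine aminotransferase gene Gpt2 (-0.81) and the serine synthesis gene Psph (-0.32) fell. Eif4ebp1 (0.61), Sesn2 (0.46), Shmt2 (0.44), Aldh18a1 (0.27), Nars (0.27) and Psat1 (0.24) rose as well. Genes of this list thus changed in both directions, more of them upward.

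**Figure D2:**
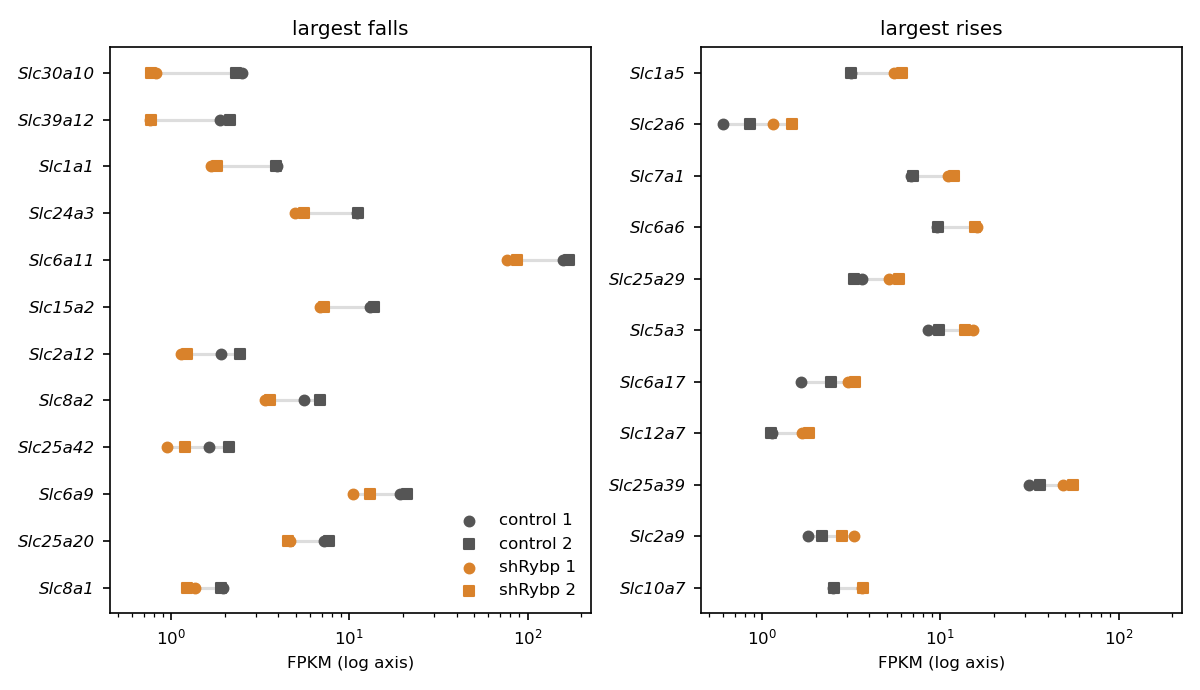
FPKM in each library (log axis) of the 12 carriers with the largest falls and 11 of the 12 with the largest rises among those that passed the test without overlap between groups. Circles and squares mark replicates 1 and 2, and Slc6a11 (77.0 to 171 FPKM) and Slc25a39 (31.3 to 55.8 FPKM) sit well above the other genes, most of which lie under 30 FPKM.

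Ion carriers fell more often than they rose: of 24 tested, 9 fell, 5 rose and 10 did not pass, with a median log2 fold change of -0.15. The 4 tested genes of families Slc8 and Slc24, exchangers that extrude calcium against sodium, were all among those that fell. Slc24a3 (mm10 chromosome 2, 145167754 to 145642166, plus strand), the potassium-dependent exchanger NCKX3, had 11.1 and 11.2 FPKM in control and 4.94 and 5.53 in shRybp, 2.18-fold lower (-1.12 ± 0.09 SE on the log2 scale, adjusted p = 2.6e-06 by edgeR). Slc8a2, the exchanger NCX2, fell from 5.57 and 6.84 to 3.38 and 3.58 FPKM (-0.87 ± 0.11 SE on the log2 scale, adjusted p = 6.9e-05 by edgeR). The other members of its family are Slc8a1 (NCX1), which fell by 0.62 from 1.97 and 1.92 FPKM, and Slc8a3 (NCX3), which fell by 0.32 and lost the call under 6 alternatives, among them without control replicate 2 and without either shRybp library. Slc24a2, another exchanger of the NCKX type, had 13 to 27 counts per library and was below the level tested.

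Chloride cotransporters changed in both directions. Slc12a2, the sodium-driven importer NKCC1 that keeps chloride high in immature neural cells, rose from 7.16 and 6.48 to 9.98 and 9.30 FPKM (0.46 ± 0.08 SE on the log2 scale, adjusted p = 0.00059 by edgeR). Among the potassium-driven exporters, Slc12a7 (KCC4) rose by 0.60 from a low level of 1.14 and 1.12 FPKM. Slc12a4 (KCC1), the most abundant ion carrier, had 24.5 and 28.6 FPKM in control and 20.3 and 23.7 in shRybp and fell by 0.31. The fall of Slc12a4 was lost under 4 alternatives, among them without control replicate 2 and without shRybp replicate 1 (-0.20 in both). The ratio of Slc12a4 to Slc12a7 was 21.5 and 25.5 in control and 12.1 and 12.9 in shRybp.

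The 2 phosphate importers differed. Slc20a1, the sodium-phosphate carrier PiT1, rose from 12.5 and 12.6 to 17.8 and 18.6 FPKM (0.50 ± 0.07 SE on the log2 scale, adjusted p = 0.00014 by edgeR), while Slc20a2 (PiT2), at 12.5 and 12.1 against 11.3 and 11.8 FPKM, did not pass (95% interval -0.28 to 0.03, edgeR adjusted p = 0.20). Their ratio went from 1.00 and 1.04 in control to 1.58 in each shRybp library. The sodium-proton exchangers of intracellular compartments Slc9a7 (-0.47) and Slc9a9 (-0.47) fell, and the plasma membrane exchanger Slc9a5 rose (0.38). Of the bicarbonate carriers, the exchanger gene Slc4a3 fell (-0.37) and the sodium cotransporter gene Slc4a7 rose (0.19). Leaving out single libraries ended the calls of Slc9a7 (without shRybp replicate 2), Slc9a5 (without control replicate 2 or either shRybp library), Slc4a3 (without shRybp replicate 1) and Slc4a7 (without any 1 of the 4).

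Of 12 tested genes for pumps that set the gradients these carriers use, 2 rose, 4 fell and 6 did not pass, where 16.3% of all genes rose and 16.7% fell. Among those that fell were the glial sodium pump subunit gene Atp1b2, with 224 and 249 FPKM in control and 138 and 162 in shRybp (log2 fold change -0.69), the calcium pump gene Atp2b4 (-0.41) and the regulator gene Fxyd6 (-0.37). The subunit gene Atp1b3 (0.35) rose. Atp1b2 is also in the list of astrocyte markers.

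**Figure D3:**
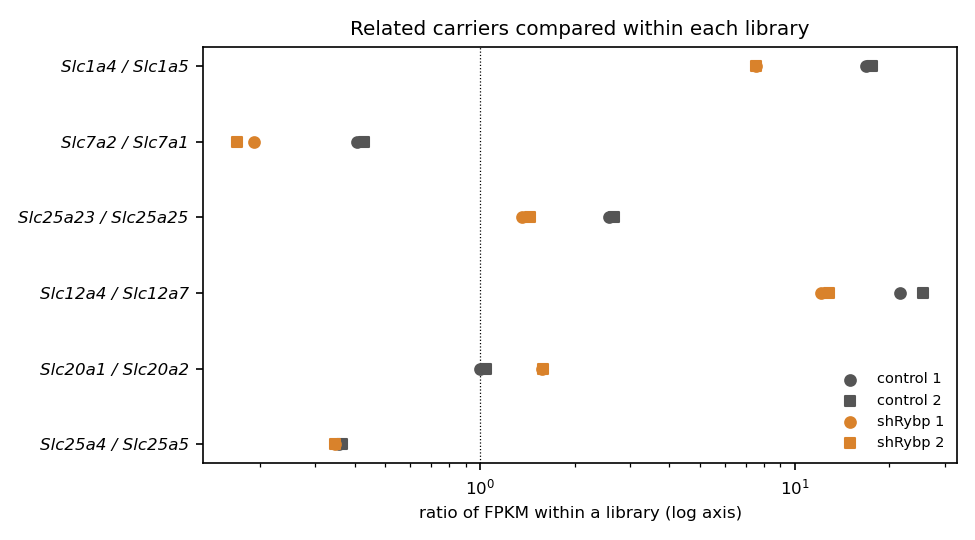
Ratio of the FPKM of related carriers within each library (log axis), with circles and squares for replicates 1 and 2, grey for control and orange for shRybp. In the upper 5 pairs the control and shRybp ratios differ by 1.5-fold or more, as for Slc1a4 over Slc1a5 (16.9 and 17.6 against 7.53 in each shRybp library), while Slc25a4 over Slc25a5 was 0.357 and 0.366 in control and 0.347 and 0.345 in shRybp, close together without overlap.

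Metal carriers held the largest falls of the set, at low levels. Of 21 tested, 4 fell, 3 rose and 14 did not pass. Slc30a10 (mm10 chromosome 1, 185454848 to 185468762, plus strand), which encodes a manganese exporter, had 2.51 and 2.30 FPKM in control and 0.823 and 0.767 in shRybp, 3.11-fold lower (-1.64 ± 0.14 SE on the log2 scale, adjusted p = 4.8e-06 by edgeR). Gm2061 on the opposite strand covers 9.1% of its exon bases. Slc39a12, the zinc importer ZIP12 shown among the promoters (mm10 chromosome 2, 14388316 to 14494977), had 1.89 and 2.13 against 0.765 and 0.771 FPKM (-1.42 ± 0.21 SE on the log2 scale, adjusted p = 0.00023 by edgeR). Replicates were close in both genes and the groups lay well apart. Both genes averaged under 1 FPKM in shRybp and reached the level tested through the control libraries.

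The other metal carriers that changed did so by less than 1.5-fold. Slc30a9, named with the zinc exporters, fell from 9.84 and 9.31 to 6.74 and 7.31 FPKM (log2 fold change -0.48), and the magnesium carrier gene Slc41a1 fell by 0.38. The zinc importer gene Slc39a6 rose from 25.74 and 24.03 to 31.6 and 31.5 FPKM (0.30). Slc30a4 (0.25) and the iron importer gene Slc11a2, which encodes DMT1 (0.31), also rose, and both calls ended without shRybp replicate 1, that of Slc30a4 also without control replicate 2 and that of Slc11a2 also without control replicate 1. The copper importer gene Slc31a1, the most abundant of the class, did not pass the test, with 33.7 and 35.1 FPKM in control and 34.8 and 33.6 in shRybp (95% interval -0.18 to 0.09, edgeR adjusted p = 0.61).

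Mitochondrial carriers of family Slc25 were the most numerous and the most abundant class. Of 38 tested, 6 rose, 5 fell and 27 did not pass, and the median log2 fold change was 0.02. The adenine nucleotide carrier Slc25a5, which swaps ATP for ADP across the inner membrane, had 588 and 568 FPKM in control and 584 and 581 in shRybp, the highest level of any carrier here (95% interval of the log2 fold change -0.16 to 0.11, edgeR adjusted p = 0.79). Its paralogue Slc25a4 had 210 and 208 against 203 and 201 FPKM (edgeR adjusted p = 0.29), and their ratio lay between 0.345 and 0.366 in the 4 libraries. The citrate exporter gene Slc25a1, which feeds lipid synthesis, overlapped between groups (29.1 and 32.3 against 30.3 and 34.9 FPKM, edgeR adjusted p = 0.67). The summed FPKM of the class was 1311 and 1304 in control and 1308 and 1331 in shRybp, so its bulk overlapped while single genes moved.

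Among those that rose, Slc25a39 (mm10 chromosome 11, 102402985 to 102407946, minus strand), which carries glutathione into the matrix, had 31.3 and 36.4 FPKM in control and 48.5 and 55.8 in shRybp (0.59 ± 0.08 SE on the log2 scale, adjusted p = 0.00021 by edgeR). Slc25a29, a carrier of basic amino acids, rose from 3.66 and 3.27 to 5.15 and 5.86 FPKM (0.63). Slc25a12, the aspartate and glutamate exchanger of the malate-aspartate shuttle (0.27), the dicarboxylate carrier gene Slc25a10 (0.39) and Slc25a24 (0.43) rose as well, and the last 2 lost the call without shRybp replicate 2, Slc25a10 also without control replicate 1 and Slc25a24 also without control replicate 2 or shRybp replicate 1.

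Of those that fell, 2 serve fatty acid and coenzyme A transport. Slc25a20, which brings acylcarnitines into the matrix for oxidation, fell from 7.22 and 7.68 to 4.64 and 4.51 FPKM (-0.74 ± 0.09 SE on the log2 scale, adjusted p = 5.2e-05 by edgeR). Slc25a42, the coenzyme A carrier, fell from 1.64 and 2.11 to 0.951 and 1.20 FPKM (-0.83 ± 0.17 SE on the log2 scale, adjusted p = 0.0028 by edgeR). Carriers that exchange ATP-magnesium for phosphate under calcium control split: Slc25a23 fell by 0.46 from 36.1 and 40.9 FPKM, while Slc25a25 rose by 0.44 from 14.0 and 15.4 FPKM, like Slc25a24 of the same subfamily. The ratio of Slc25a23 to Slc25a25 was 2.58 and 2.66 in control and 1.36 and 1.45 in shRybp. The glutamate carrier gene Slc25a18, at 112 and 109 against 94.96 and 99.15 FPKM, fell by 0.22 but not without control replicate 1 or without shRybp replicate 1. Slc25a46 of the outer membrane fell by 0.21 and lost the call when any 1 of the 4 libraries was left out.

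Of 11 sugar carriers tested, 3 rose, 1 fell and 7 did not pass, with a median log2 fold change of -0.18. The myo-inositol carrier Slc5a3 (mm10 chromosome 16, 92058322 to 92087473, plus strand) had 8.50 and 9.82 FPKM in control and 15.2 and 13.7 in shRybp (0.63 ± 0.08 SE on the log2 scale, adjusted p = 8.7e-05 by edgeR), and shares 1.5% of its exon bases with Mrps6 on the same strand. Slc2a12 (GLUT12), with 9.6% of its exon bases overlapping Tbpl1 on the opposite strand, fell from 1.90 and 2.42 to 1.13 and 1.24 FPKM (-0.90 ± 0.17 SE on the log2 scale, adjusted p = 0.0018 by edgeR). The urate carrier gene Slc2a9 (0.57) and Slc2a6 (GLUT6, 0.83) rose from 1.82 and 2.18 and from 0.601 and 0.858 FPKM. Without shRybp replicate 1 the first of these 2 calls ended, and without control replicate 1 or shRybp replicate 2 the second did. Slc2a6 averaged 0.729 FPKM in control and 1.31 in shRybp, so it reached the level tested only through the shRybp libraries. Its counts were 34 and 44 in control and 53 and 78 in shRybp. Slc50a1, the most abundant sugar carrier here, overlapped between groups at 11.6 and 14.0 against 11.9 and 13.8 FPKM. Of the nucleotide sugar carriers of the Golgi, Slc35a5 (-0.24) and Slc35a4 (-0.19) fell out of 5 tested, and lost the call under 8 and 9 alternatives, among them leaving out any 1 of the 4 libraries.

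In the smaller classes single genes changed, and the 3 tested organic ion carriers did not pass. Slc15a2, the proton-coupled peptide carrier PEPT2 of glia and choroid plexus, fell from 13.1 and 13.8 to 6.88 and 7.20 FPKM (-0.97 ± 0.07 SE on the log2 scale, adjusted p = 1.4e-06 by edgeR). Of the 7 choroid plexus and ependymal markers, 6 are not among the genes of the table, and Foxj1 fell from 4.22 and 4.13 to 2.78 and 2.99 FPKM (-0.56 on the log2 scale, adjusted p = 0.0082 by edgeR). The part of such cells in the fall of Slc15a2 was not tested. The plasma membrane nucleoside carrier gene Slc29a1 (ENT1) rose from 10.02 and 11.14 to 14.2 and 15.5 FPKM (0.45, edgeR adjusted p = 0.0017). Its lysosomal relative Slc29a3 (ENT3) fell by 0.25, a call lost when any 1 of the 4 libraries was left out.

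Other lysosomal and vitamin carriers changed modestly. Slc17a5, which encodes the lysosomal sialic acid exporter sialin, fell from 9.41 and 9.27 to 6.21 and 6.68 FPKM (-0.57 on the log2 scale, adjusted p = 0.00035 by edgeR), and Slc49a4 fell by 0.54. Of 12 vitamin and cofactor carriers 1 rose, 2 fell and 9 did not pass: the thiamine carrier gene Slc19a2 rose by 0.36, and beside Slc49a4 the choline carrier gene Slc44a1 fell by 0.27. These 2 calls ended without control replicate 1 and without shRybp replicate 2, respectively. Slc10a7 rose by 0.51 from 2.49 and 2.52 FPKM. The fatty acid carrier Slc27a1 had 25.1 and 26.7 FPKM in control and 19.5 and 25.1 in shRybp. It did not pass (-0.25 on the log2 scale, adjusted p = 0.055 by edgeR). Its value ranged from -0.09 without shRybp replicate 1 to -0.45 without shRybp replicate 2, and was -0.29 without control replicate 1. Slc27a1 passed without the level filter (edgeR adjusted p = 0.046) and at a mean FPKM of at least 5 (edgeR adjusted p = 0.048). With the replicate number added to the fit it passed too (edgeR adjusted p = 0.0012). Slc22a17, a receptor-like member of the organic ion carriers, overlapped at 31.2 and 38.1 against 27.2 and 33.2 FPKM and did not pass (-0.23 on the log2 scale, adjusted p = 0.091 by edgeR). Its value was -0.36 without control replicate 1, -0.38 without shRybp replicate 2 and -0.09 without control replicate 2. With the replicate number added to the fit Slc22a17 passed (edgeR adjusted p = 0.00069). The scaffold gene Slc9a3r1 and the other 3 genes that are no transporters did not pass.

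**Figure D4:**
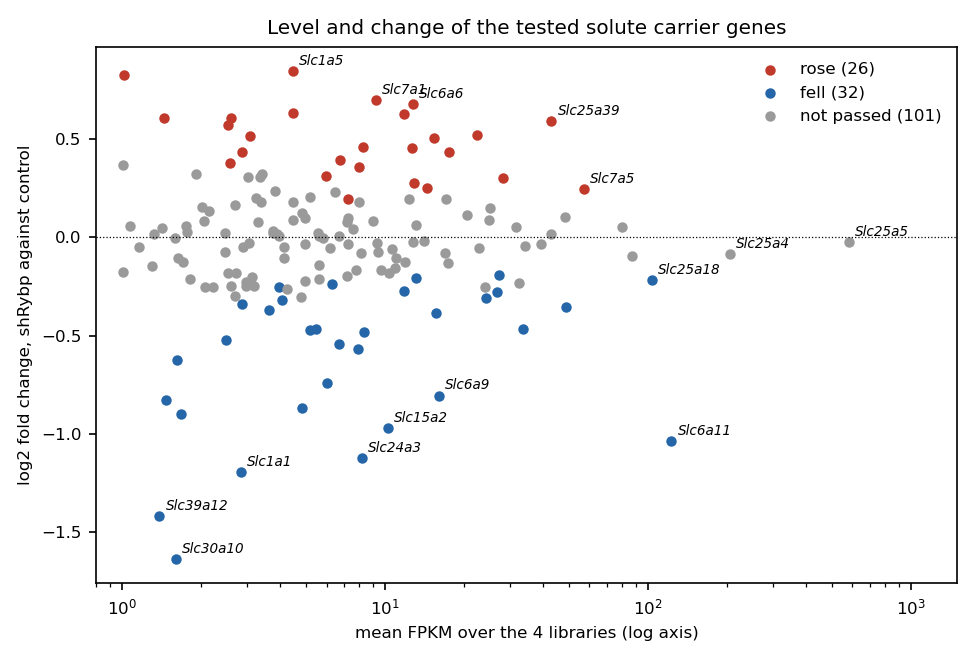
Mean FPKM over the 4 libraries (log axis) against log2 fold change for the 159 tested carriers, coloured by test result, with 26 that rose, 32 that fell and 101 that did not pass. The 2 most abundant carriers, Slc25a5 and Slc25a4, lie near 0, and Slc6a11 is the abundant carrier with a large fall.

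Change was not confined to scarce or abundant carriers. From 1 to 5 FPKM 9 of 74 rose and 12 fell, from 5 to 20 FPKM 13 of 59 rose and 13 fell, and from 20 FPKM 4 of 26 rose and 7 fell. All genes of those levels passed in 25.9%, 34.2% and 41.6% of cases, and the carriers in 28.4%, 44.1% and 42.3%.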

How the data were processed

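The authors deposited 1 table with raw read counts per gene, whole numbers that were not normalized, beside FPKM values, per the file headers. Between libraries the ratio of count to FPKM differed by 1 factor, the same for every gene within a relative 3.6e-08. The submitters' processing notes name the build mm10, while no aligner, counter or strand setting is given in the sources used here. Every gene of the table has at least 40 counts over the 4 libraries. Chromosomes, strands and overlaps came from GENCODE M21, whose starts and ends equal the table's for all 184 carriers. A spreadsheet had turned 21 symbols into dates, restored from identifiers.

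Genes that averaged 1 FPKM or more (12062) were fitted on counts with edgeR 4.0.16 in R 4.3.3 (TMM scaling, quasi-likelihood test, two-sided, Benjamini-Hochberg over all genes). The standard error is the absolute log2 fold change over the square root of the F statistic. Replicates differed by more than counting noise (chi-square per degree of freedom 5.18 and 4.36). DESeq2 1.42.0, limma 3.58.1 on log2(FPKM + 1) and other settings were alternatives.

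Members and lists were chosen with earlier results of these data known. Classes follow the family number in the symbol. Named in full are the 12 largest rises and 12 largest falls without overlap between groups, the most abundant carrier of each class and a short list of partners and paralogues; other carriers that passed are named with their change. The paralogue pairs given as ratios were chosen after their values were seen, and the ratios were not tested. Some genes that this rule names are not reported here.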

Additional observations from a re-analysis of the deposited data

How the results depend on the processing

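Of the 58 carriers called, 36 kept the call in each alternative that tested them (12, or 11 for carriers under a mean of 5 FPKM), and 22 lost it in at least 1, 15 of these in 3 or more. No called carrier changed sign. With a mean FPKM of at least 5 only 85 carriers were tested, of which 17 rose and 21 fell. Leaving out each library gave 20 to 25 rises and 23 to 34 falls, and 2777 to 3396 genes called overall. Library totals without TMM, which shift the median of all genes to 0.04 on the log2 scale, gave 33 rises and 28 falls, and limma on log2(FPKM + 1) gave 27 and 23. DESeq2 called 20 rises and 26 falls. The replicate numbers are not stated to mark a shared culture, and the correlation between groups of the difference of replicate 1 and 2 was 0.1 over 12062 genes, so they were not taken as pairs. With the replicate block 5328 genes were called, with 34 carriers up and 45 down. With 2 libraries a group, small changes of carriers under 5 FPKM are poorly resolved.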

Other observations

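Of the 25 carriers below the level tested, 7 (28.0%) passed when every gene of the table was fitted, 5 of them higher and 2 lower in shRybp. Of all 1819 genes below that level 19.6% passed, 134 higher and 223 lower. The potassium-chloride exporter gene Slc12a5 (KCC2), typical of mature neurons, had 23 and 22 counts in control and 39 and 58 in shRybp (1.19 on the log2 scale, adjusted p = 0.0044 by edgeR). Slc5a9 had 22 and 24 counts against 49 and 59 (1.31, edgeR adjusted p = 0.0015). The citrate importer gene Slc13a5 had 35 and 30 counts against 11 and 13 (-1.34, edgeR adjusted p = 0.0066). Slc22a15, Slc10a3 and Slc2a10 were the others that were higher, and Slc38a6 the other that was lower. These counts are small, and the fold changes depend on few reads.

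Of 48 tested transporters that the naming rule does not reach, 9 rose and 8 fell, with a median log2 fold change of 0.01, and over all genes 16.3% rose and 16.7% fell. The organic anion carrier gene Slco3a1 rose from 1.89 and 1.71 to 3.61 and 3.73 FPKM (0.99 ± 0.10 SE on the log2 scale, adjusted p = 1.1e-05 by edgeR), and the heme exporter gene Flvcr1 rose by 0.38. Sfxn5, a mitochondrial sideroflexin, fell from 19.8 and 21.7 to 11.8 and 13.1 FPKM (-0.77 ± 0.07 SE on the log2 scale, adjusted p = 7.5e-06 by edgeR), the lysosomal cystine exporter gene Ctns fell by 0.61 and the phosphate exporter gene Xpr1 fell by 0.34. The pyruvate carrier genes Mpc1 (-0.07) and Mpc2 (-0.11) did not pass.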
